A study of Mus musculus with 4 samples.

Results

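The resting zone and the articular surface lie at opposite faces of the same young cartilage: the resting zone is the reserve of slowly dividing chondrocytes that feeds the growth plate, and the surface layer becomes the gliding face of the joint. This account follows 10 genes known from these layers, Prg4, Ucma, Fxyd2, Cytl1, Barx1, Erg, Creb5, Clu, Cilp and Scrg1, through the 21 probe sets of an Affymetrix mouse array whose annotation names one of these symbols alone, of 45037 probe sets that are not controls and 18193 genes named alone. The question is how these genes differ when chondrocytes lose the primary cilium. The Control group (n = 2 arrays) holds wild-type mice, and the Cilia-deleted group (n = 2 arrays) holds Col2aCre;Ift88fl/fl mice, in which Cre driven by Col2a regulatory sequence removes the floxed Ift88 gene from cells that express Col2a. All are C57BL/6 mice at postnatal day 7 with no treatment named, and the sex, the litter and the number of mice per array are not given. Proliferative zone chondrocytes were cut with a needle from 40 µm sections of the proximal tibia and distal femur, so the tissue was meant to lie between the hypertrophic cells and both layers described here.

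Resting chondrocytes produce the parathyroid hormone-related protein that holds proliferative cells in cycle. Prehypertrophic cells secrete Indian hedgehog, whose signal is passed on through the primary cilium. Cells at the joint surface arise from the Gdf5-expressing interzone of the embryo and secrete lubricating and matrix-protecting proteins. Erg, Barx1 and Creb5 are transcription factors of the developing joint. Prg4, Clu, Cilp, Cytl1, Ucma and Scrg1 encode secreted proteins, and Fxyd2 encodes a small membrane protein.

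The values are log2, and each probe set's own median over the arrays has been set to 0. They give differences between arrays, and no level of one gene can be set against that of another. What remains of the level is a coarse class, read from the number steps of the values, for the lowest of the 4 original values of a probe set: 8 to 16, 4 to 8 or 2 to 4 on the log2 scale. The brightest class held 31 of 37 probe sets of genes of growth plate cartilage, the tissue that the label names, with at least 1 for each of the 17 genes (among them Col2a1, Acan and Sox9), against 24.9% of all probe sets. It was not particular to cartilage, since it also held 10 of 16 probe sets of hypertrophic zone genes, 6 of 10 of osteoblast genes, 13 of 30 of synovium, tendon and perichondrium genes and 4 of 11 of blood and marrow genes, and 0 of 9 of skeletal muscle genes. Of the 21 probe sets described here, 4 were in the brightest class (both of Ucma, 1 of Fxyd2 and that of Scrg1), 13 in the middle class and 4 in the dimmest. The steps place a probe set only roughly: 16% of those in the brightest class fitted the next coarser step as well. Control 1 had the widest spread over all probe sets (SD 0.289, against 0.173 to 0.223 in the other arrays).

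The RefSeq table of GRCm38.p6 holds promoter windows for 6 of the 10 genes. Of these the 250 bases before the start are shown for Ucma, which differed in both controls, and for Cytl1 and Creb5, which stood high in Control 2. For Creb5 both windows held for it are printed, each before a different start, since its probe sets differed in their values. The span of the Creb5 gene begins at 53287226, inside the first of these windows. The first start named here is therefore not the first base of the gene. Capitals mark a cAMP response element (TGACGTCA, the site bound by factors of the CREB family to which Creb5 belongs) or an AP-1 site (TGACTCA), and windows all in lower case hold neither. All 4 lie on the plus strand, at chr2:4975872-4976121 for Ucma, chr5:37735269-37735518 for Cytl1, chr6:53287053-53287302 for the first start of Creb5 and chr6:53573124-53573373 for the second.
Ucma: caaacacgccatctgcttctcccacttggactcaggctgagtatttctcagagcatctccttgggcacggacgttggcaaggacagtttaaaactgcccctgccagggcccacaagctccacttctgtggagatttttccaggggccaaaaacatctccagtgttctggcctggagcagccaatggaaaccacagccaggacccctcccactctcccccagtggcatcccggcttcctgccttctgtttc
Cytl1: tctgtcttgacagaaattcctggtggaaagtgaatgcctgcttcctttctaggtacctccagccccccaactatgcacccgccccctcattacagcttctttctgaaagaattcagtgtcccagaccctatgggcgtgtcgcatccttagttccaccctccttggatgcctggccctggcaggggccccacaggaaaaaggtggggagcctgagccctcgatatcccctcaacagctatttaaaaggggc
Creb5, first start: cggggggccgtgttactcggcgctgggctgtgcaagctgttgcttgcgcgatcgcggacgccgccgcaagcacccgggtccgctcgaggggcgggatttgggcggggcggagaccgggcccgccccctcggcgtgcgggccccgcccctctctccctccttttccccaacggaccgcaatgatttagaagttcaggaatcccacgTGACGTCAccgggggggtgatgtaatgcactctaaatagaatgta
Creb5, second start: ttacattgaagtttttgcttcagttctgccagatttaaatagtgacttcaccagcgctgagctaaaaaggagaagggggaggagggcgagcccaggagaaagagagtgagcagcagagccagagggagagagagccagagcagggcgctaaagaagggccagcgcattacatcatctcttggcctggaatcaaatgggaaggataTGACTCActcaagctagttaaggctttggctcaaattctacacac

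Searched on both strands, the cAMP response element was present in 1 of 9 windows of these genes and in 1.55% of all 32851 windows. It lay 45 bases before the first Creb5 start printed, in the part of that window that falls inside the gene's span. The AP-1 site was likewise present in 1 of 9, 45 bases before the second Creb5 start, and in 4.46% of all windows. The Gli site TGGGTGGTC, the sequence bound by the transcription factors of Hedgehog signalling, was in 0 of 9 and in 0.225% of all. A match describes these letters alone.

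None of the 21 probe sets passed the test between the groups. In cut tissue such as this, fewer cells of a type and less RNA per cell cannot be told apart. In limma's moderated two-sided test 20 of 45037 probe sets passed an adjusted p of 0.05, which is 0.0444%, and 0 of the 21 did, the smallest adjusted p among them being 0.323. At an unadjusted p under 0.05 there were 3 probe sets lower in the Cilia-deleted arrays, all of Fxyd2, where 3.18% of all probe sets were, and 2 higher, both of Ucma, where 3.0% were. The groups did not overlap for 7 of the 21 in the lower direction (17.4% of all probe sets) and for 2 in the higher direction (16.2%). The 21 had a median difference of -0.19, against 0.00153 over all probe sets. With 2 arrays against 2, simulated differences of 2 on the log2 scale were called in 71% and those of 1 in 1% of cases, so a change of 2-fold in size would mostly go uncalled. The simulation changed 100 probe sets by each size. Many true changes ease the adjusted threshold, so the 71% need not hold for these arrays. Fxyd2 1456601_x_at, with a difference of -2.05, was not called (adjusted p = 0.323 by limma).

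The values fell into different arrangements over the 2 controls, sorted here without a test. Where both controls lay on one side of both Cilia-deleted arrays with a gap of at least 0.5, the gene is described as differing in both controls. Where 1 array lay at least 1 outside the other 3 and no such gap existed, it is described as standing apart in that array alone. Of the 21 probe sets 3 were higher in both controls (0.668% of all probe sets), 2 were lower in both (0.699%), 3 were high in Control 2 alone (0.0999%), 1 was low in Control 1 alone (0.0866%) and 12 were none of these. The sorting uses the same values that it describes.

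Fxyd2 was the gene with higher values in both controls. It encodes the gamma subunit of the sodium-potassium pump, which tunes the pump's affinity for its ions, and lies on chromosome 9 (45399709 to 45410278). Probe set 1456601_x_at read 0.74 and 1.59 in Control 1 and 2 and -0.74 and -1.02 in Cilia-deleted 1 and 2. Probe set 1419379_x_at read 0.57 and 1.12 against -0.57 and -1.10. Probe set 1419378_a_at read 0.35 and 1.46 against -0.35 and -1.44. In each of these the groups were apart, by 1.48, 1.15 and 0.69, and Control 2 was the higher control.

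The group difference was -2.05 for 1456601_x_at (SE 0.302, 95% interval -2.80 to -1.29, 4.13-fold lower, adjusted p = 0.323), -1.69 for 1419379_x_at (SE 0.266, adjusted p = 0.343) and -1.80 for 1419378_a_at (SE 0.492, adjusted p = 0.684). Unlike these, 1449883_at read 0.06 and 0.07 in the controls and -0.24 and -0.06 in the Cilia-deleted arrays, a difference of -0.21 (95% interval -0.58 to 0.15). The annotation ties that probe set to a non-coding transcript record of the gene. Without Control 2 the 3 larger differences were -1.62, -1.41 and -1.24, and without Control 1 they were -2.47, -1.96 and -2.35, so that each control alone lay above the Cilia-deleted arrays. For probe sets with the suffix _x_at some probes can also bind other transcripts.

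Ucma had lower values in both controls. It encodes a secreted protein rich in gamma-carboxyglutamate that marks chondrocytes of the resting zone and its border, and lies on chromosome 2 (4976122 to 4985748), just after the window printed for it. Probe set 1428993_at read -0.81 and -0.37 in the controls and 0.62 and 0.37 in the Cilia-deleted arrays. Probe set 1428994_s_at read -1.04 and -0.33 against 0.49 and 0.33. The groups were apart by 0.74 and 0.66, and Control 1 was the lower control in both.

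The difference was 1.09 (SE 0.204, 95% interval 0.57 to 1.60, 2.12-fold higher, adjusted p = 0.469) and 1.10 (SE 0.258, 95% interval 0.45 to 1.75, adjusted p = 0.585). Without Control 1 it was 0.87 and 0.74, and without Control 2 it was 1.31 and 1.45. Fxyd2 and Ucma, both named for resting cartilage, thus lay in opposite directions in these arrays.

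Prg4 was set apart by Control 2 alone. It encodes lubricin, the lubricating glycoprotein made by surface chondrocytes and by the synovial lining, and lies on chromosome 1 (150449412 to 150466221). Its probe set read 0.01 and 7.52 in the controls, in that order, and -0.19 and -0.01 in the Cilia-deleted arrays. Control 2 was thus 182-fold above the next array, and the other 3 arrays lay within 0.20 of one another. No other of the 45037 probe sets differed as much between the controls, the next largest difference being 4.83. The lowest original value lay between 4 and 8 by the step class, which would place Control 2 between 11.7 and 15.7. Whether the other 3 arrays lay above background was not analysed here, so the fold is as measured.

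The group difference of Prg4 was -3.87 (SE 2.28, 95% interval -9.58 to 1.84, adjusted p = 0.896). The groups did not overlap, but the gap between Control 1 and the nearest Cilia-deleted array was 0.02. It was -2.60 after renewed quantile normalization of the 4 arrays. Without Control 2 the difference was -0.11, a 1.08-fold difference. Without Control 1 it was -7.62 (adjusted p = 0.00746), a fit in which the lone Control 2 is assumed to vary like the Cilia-deleted arrays. Of the 21 probe sets this was the one call in any of the settings tried.

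Creb5 and Cytl1 shared the high value in Control 2. Creb5 encodes a basic leucine zipper factor that surface chondrocytes need to express Prg4 (chromosome 6, 53287226 to 53700364). Its probe set 1440527_at read -0.22 and 2.06 in the controls and 0.22 and -0.36 in the Cilia-deleted arrays, with Control 2 3.57-fold above the next array. Probe sets 1440089_at (0.43) and 1442576_at (0.51) also had their highest value in Control 2, with the other 3 arrays between -0.05 and 0.04. The fourth, 1457222_at, ranged from -0.02 to 0.09 over all 4 arrays.

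The difference of 1440527_at was -0.98 (SE 0.727, 95% interval -2.81 to 0.84, adjusted p = 0.928) and was 0.16 without Control 2. The other 3 had differences of -0.19, -0.25 and 0.03. Of the 4 Creb5 probe sets 3 were in the dimmest class, 1440527_at among them, so the fold of this factor rests on a dim probe set. Which of the starts printed above each probe set reports was not analysed here.

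Cytl1, a small secreted cytokine-like protein of cartilage (chromosome 5, 37735519 to 37739820), read 0.13 and 1.53 in the controls and -0.13 and -0.28 in the Cilia-deleted arrays. Both controls lay above both Cilia-deleted arrays, by 0.26, and Control 2 lay 2.64-fold above Control 1. With a required gap of 0.25 in place of 0.5, Cytl1 would be counted among the genes that differed in both controls. The difference was -1.03 (SE 0.447, 95% interval -2.15 to 0.09, adjusted p = 0.822), -1.73 without Control 1 and -0.33 without Control 2. Cilp, the matrix glycoprotein of the intermediate layer of articular cartilage (chromosome 9, 65265180 to 65280614), read -0.12 and 0.57 against 0.07 and -0.07. It was a dim probe set that was highest in Control 2 by 0.50, with a group difference of -0.23 (95% interval -0.86 to 0.40), which was 0.12 without Control 2.

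**Figure D1:**
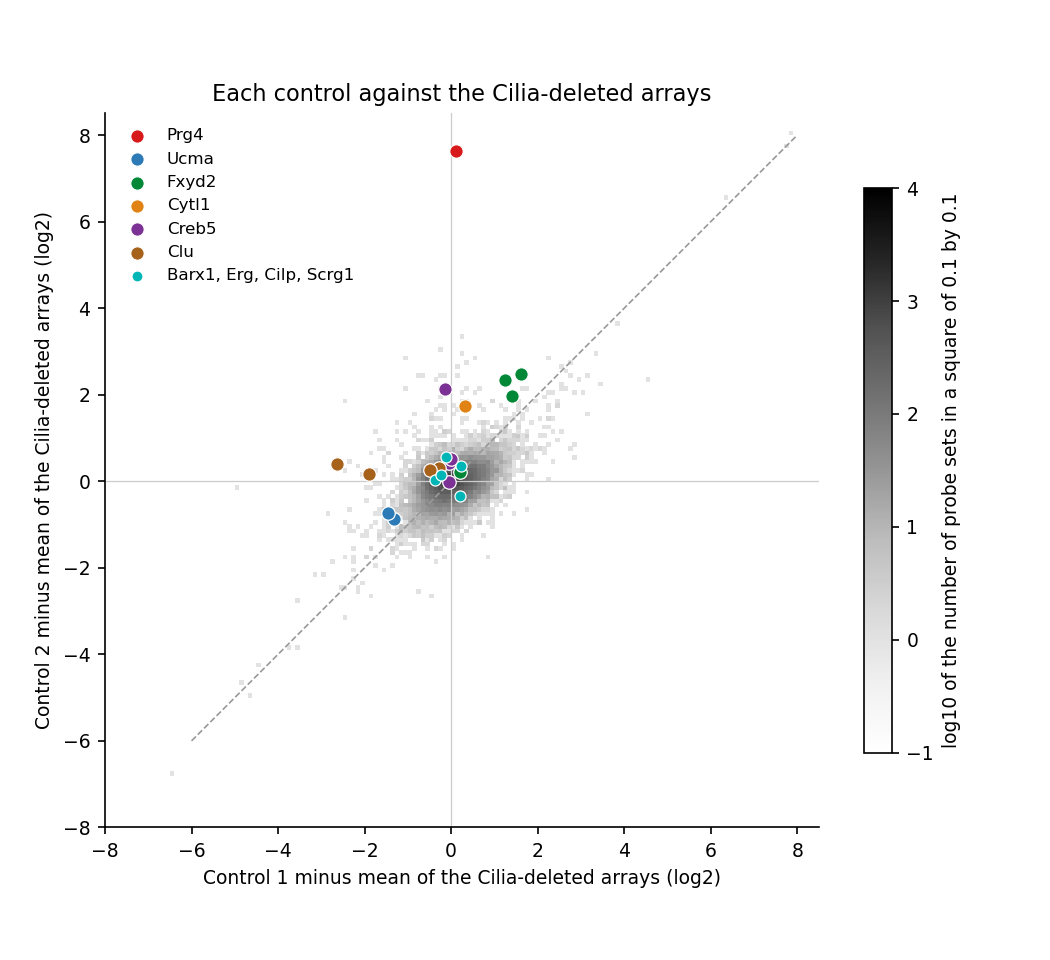
Control 1 (x axis) and Control 2 (y axis), each minus the mean of both Cilia-deleted arrays, in log2, for the 21 probe sets in colour over all 45037 probe sets in grey squares shaded by their number on a log scale. On the dashed line both controls differ from the Cilia-deleted arrays alike. The 3 larger Fxyd2 points lie above 0 on both axes and both Ucma points below 0 on both, while Prg4 and 1 probe set of Creb5 lie near the vertical axis, which is where Control 2 alone differs.

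Clu stood apart in the other control, Control 1, by 1 of its 4 probe sets, 1437458_x_at. It encodes clusterin, a secreted chaperone abundant in surface chondrocytes (chromosome 14, 65968483 to 65981548). Probe set 1437458_x_at read -2.45 and 0.59 in the controls and 0.96 and -0.59 in the Cilia-deleted arrays. Probe set 1437689_x_at read -1.50 and 0.58 against 1.41 and -0.58. The 2 others, 1454849_x_at and 1418626_a_at, were also lowest in Control 1, at -0.48 and -0.28. In all 4 the groups overlapped, and Cilia-deleted 1 lay above Cilia-deleted 2.

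The differences of Clu ranged from -0.01 (1418626_a_at) to 1.12 (1437458_x_at, SE 1.04, 95% interval -1.49 to 3.73), with adjusted p values of 0.958 or more. The difference between the controls was larger than that between the groups in each, reaching 3.04 for 1437458_x_at. Without Control 1 the 4 differences were -0.40, -0.17, -0.27 and -0.31, in the order 1437458_x_at, 1437689_x_at, 1454849_x_at and 1418626_a_at. Without Control 2 they were 2.64, 1.91, 0.49 and 0.28.

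The remaining genes had group differences between -0.28 and 0.18. Barx1, a homeobox factor of the joint and of facial and stomach mesenchyme (chromosome 13, 48663036 to 48666507), read 0.05 and 0.19 in the controls and -0.29 and -0.05 in the Cilia-deleted arrays. Its groups were apart by 0.09, and the difference was -0.28 (95% interval -0.68 to 0.11, adjusted p = 0.879). Scrg1, a small secreted protein first expressed as mesenchyme turns into cartilage (chromosome 8, 57455882 to 57479360), read 0.21 and -0.35 against -0.06 and 0.06, so the Cilia-deleted arrays lay between the controls. Its difference was 0.07 (95% interval -0.48 to 0.62).

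Erg, an ETS-family factor that holds chondrocytes in the articular state (chromosome 16, 95359169 to 95586600), had a pair of probe sets with unlike arrangements. Probe set 1425370_a_at read -0.38 and 0.03 against -0.01 and 0.01, with only Control 1 away from 0. Probe set 1440244_at read -0.19 and 0.19 against 0.62 and -0.53, so the Cilia-deleted arrays were the outermost. Their differences were 0.18 (95% interval -0.28 to 0.64) and 0.05 (95% interval -0.93 to 1.03).

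**Figure D2:**
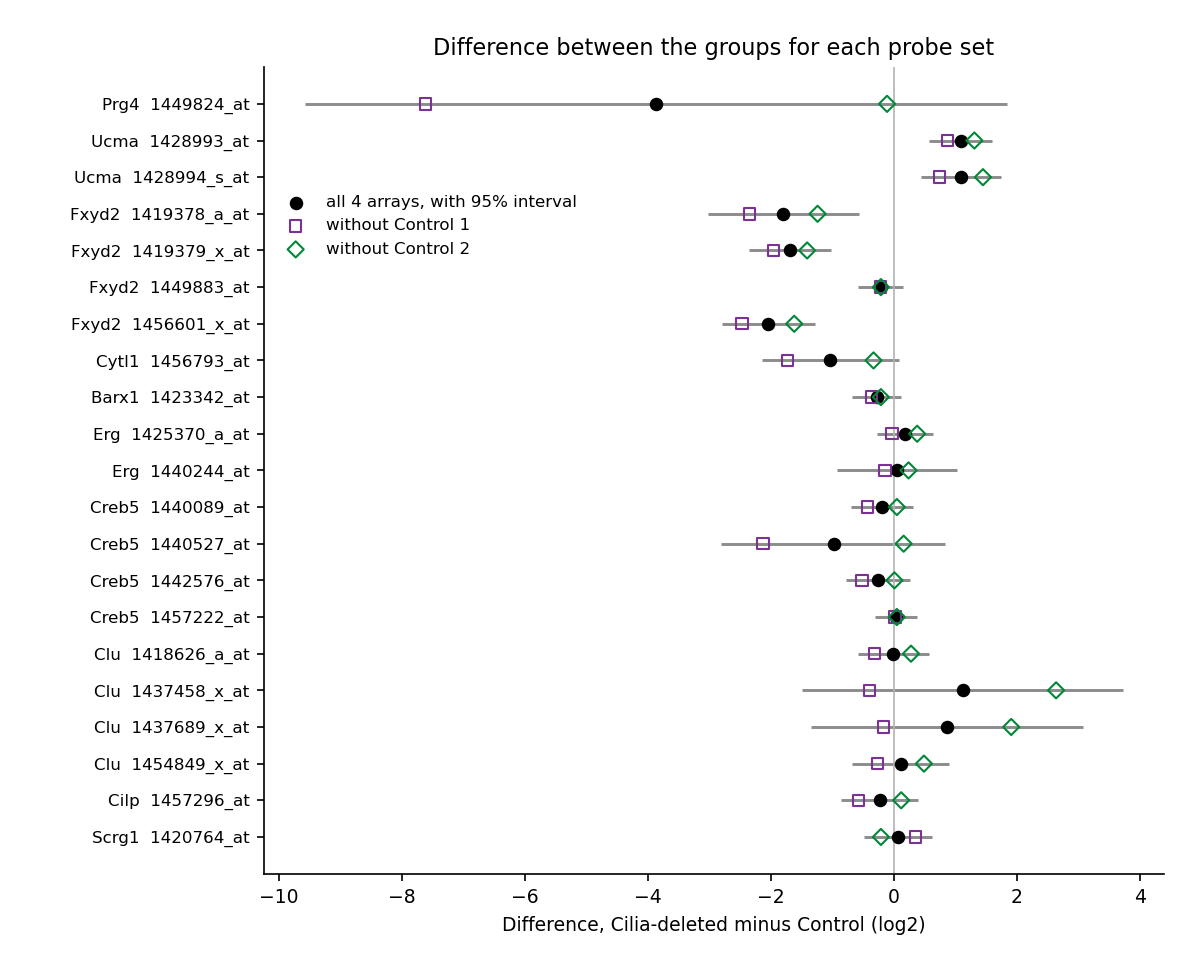
Cilia-deleted minus Control difference of each probe set in log2: black points with their 95% interval from limma (n = 2 arrays per group), purple squares without Control 1 and green diamonds without Control 2. The Prg4 interval reaches from -9.58 to 1.84, and its value moves to -0.11 without Control 2, while 3 Fxyd2 intervals and both Ucma intervals stay on one side of 0 before adjustment for multiple tests.

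Across the 21 probe sets 13 had their highest value in Control 2 (61.9%), where 26.6% of all probe sets did. By gene means 6 of the 10 genes did, where 27.6% of the 18193 genes did. Probe sets of the same gene are not independent, and the genes were chosen with earlier results of these data known. Both counts are therefore descriptions and no test. The difference between the controls exceeded that between the group means for 13 of the 21. This was not counted over all probe sets. Single arrays vary more than means of 2 arrays, and without that share the count cannot say whether these genes stand apart. Markers of blood and marrow were also highest in Control 2. Of 10 blood and marrow genes 9 were measured and all 9 were highest in Control 2, where 27.6% of the 18193 genes were. Their median was 1.34 in Control 2, against -0.348 in Control 1, -0.296 in Cilia-deleted 1 and 0.209 in Cilia-deleted 2. Mmp9, a protease of osteoclasts and neutrophils, was at 2.46, the osteoclast phosphatase Acp5 at 1.84 and the neutrophil protein S100a8 at 1.60 in Control 2. For Hba-a1 and Lyz2 Control 2 led the next array by only 0.03 and 0.15. Of 14 synovium, tendon and perichondrium markers 7 were highest in Control 2, where their median was 0.126, and of 8 skeletal muscle markers 3 were, with a median of 0.308. Control 2 lay at least 1 above every other array for 4 of the 9 blood and marrow genes and for 0 of the 14 and 0 of the 8, where 0.0989% of all genes did. Their part in the high values of Prg4, Creb5 and Cytl1 was not tested.

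**Figure D3:**
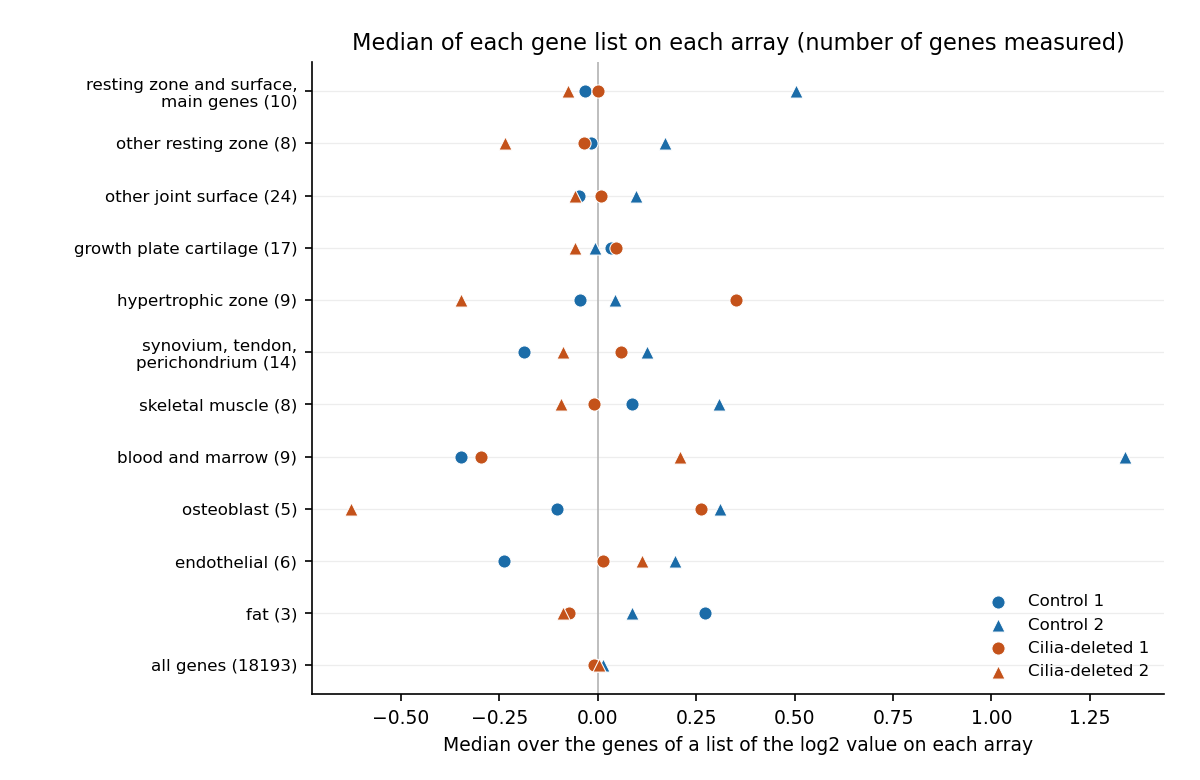
Median over the genes of each list of the log2 value on each array, with the number of genes measured, in the same colours and shapes as the plot of values by array. The blood and marrow list reaches 1.34 in Control 2, and the growth plate cartilage list stays between -0.0588 and 0.047 on all 4 arrays.

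The genes most like Prg4, by the amount by which Control 2 exceeded the highest of the other 3 arrays, came from several tissues. The 10 probe sets ranked highest outside the genes described were of Egr1, an immediate early transcription factor (2.71), Abi3bp, a matrix protein of joint tissue (2.68), Mmp9 (2.52), the collagenase Mmp13 (2.15), Hemgn (2.08), Itih5 (2.02), Slc4a1, the anion exchanger of red cells, by 2 probe sets (1.98 and 1.90), Igfbp5 (1.98) and Car2, a carbonic anhydrase of red cells and osteoclasts (1.94). Prg4 exceeded all of them at 7.51, and Creb5 1440527_at and Cytl1 ranked 14 and 26 of 45037. Nearest to Fxyd2 1456601_x_at in Euclidean distance over the 4 arrays were Vit (0.274), Fabp5 (0.384), Hps5 (0.624), Plppr4 (0.636) and Bcl2 (0.754). Nearest to Ucma 1428994_s_at were Ikbip (0.123), Ptpn3 (0.127), S100a4 (0.170), Tspan6 (0.183) and Serpinb9 (0.208). Each likeness rests on 4 arrays.

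Other resting zone genes, taken as the mean over a gene's probe sets, held both arrangements too. Of 10 listed, 8 were measured, 6 below 0 and 2 above, with a median difference of -0.354 against -0.00683 over all genes. The groups did not overlap for 3 in the lower direction (18.6% of all genes) and 1 in the higher (14.7%), and 0 passed the test. Gdf10, a BMP-family ligand, read 1.38 and 0.65 in the controls and -0.65 and -1.04 in the Cilia-deleted arrays (difference -1.86, SE 0.270, adjusted p = 0.238). Sfrp5, a secreted Wnt antagonist of the resting zone, read 0.45 and 0.88 against -0.89 and -0.45 (-1.33, SE 0.218, adjusted p = 0.312). Its probe sets were unlike: 1436075_at had a difference of -2.55 with the groups apart, and 1423023_at one of -0.11 with the groups overlapping. Gdf10, with its single probe set, and 1 of the 2 of Sfrp5 thus had higher values in both controls, as 3 of the 4 of Fxyd2 did. The adjusted p values given here are by limma on gene means. By limma per probe set, the test used for the main genes, that of Gdf10 was 0.341. Those of Sfrp5 were 0.193 for 1436075_at and 0.992 for 1423023_at.

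Wif1, another secreted Wnt inhibitor, read -0.41 and 2.25 against 0.41 and -0.84, with Control 2 alone high as for Prg4. Its difference was -1.14 and turned to 0.19 without Control 2. Apoe, a lipid carrier, was at -0.53, and the BMP antagonists Chrd and Grem1 were at -0.18 and 0.11.

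Of 24 other genes of the articular surface and joint, all measured, 12 lay below 0 and 12 above, with a median difference of -0.0383 and 0 past the test. The groups did not overlap for 8 in the lower direction (18.6% of all genes) and 3 in the higher (14.7%). Vit, the matrix protein vitrin, read 0.67 and 1.59 against -0.67 and -0.76 (-1.84, SE 0.296, adjusted p = 0.312). Sfrp2, a secreted Wnt modulator, read -0.63 and -0.78 against 0.65 and 0.63 (1.35, SE 0.129, adjusted p = 0.0982). These adjusted p values are by limma on gene means. By limma per probe set, the test used for the main genes, they were 0.382 for Vit and 0.17 for Sfrp2. Both controls therefore lay above the Cilia-deleted arrays for Vit and below them for Sfrp2.

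Abi3bp read 0.02 and 1.66 against -0.02 and -0.34 and was the 1 gene of the 24 with Control 2 at least 1 above every other array. It lay 1.64 above them, against 7.51 for Prg4, and its difference of -1.01 was -0.19 without Control 2. Its probe sets 1427054_s_at and 1427053_at read 2.70 and 0.62 in Control 2. Tnc (0.55), Dkk3 (0.52) and Foxo3 (0.32) were higher by group mean, with groups overlapping for Tnc and Dkk3. Of the 24 genes 11 were highest in Control 2, where 27.6% of all genes were.

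Sex-linked genes divided the arrays in the same way as the genotype. Xist, expressed from the inactive X chromosome of females, read 3.58 and 3.74 in the controls and -3.79 and -3.61 in the Cilia-deleted arrays, and the Y-linked Eif2s3y read -1.55 and -1.78 against 1.80 and 1.55. For genes that differed in both controls, such as Fxyd2 and Ucma, sex and genotype cannot be told apart in these arrays. The probe set of Ift88 itself had a difference of 0.08 (95% interval -0.34 to 0.50), and whether it lies in the deleted exons was not analysed here. Growth plate cartilage genes, the tissue that was cut, had a median difference of 0.00373, with 1 of 17 highest in Control 2.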

How the data were processed

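Gene expression was measured on 4 arrays of proliferative zone chondrocytes, 2 per group, from 50 ng of total RNA amplified in 2 cycles from oligo-dT primers, per the labels' protocols. The deposited table holds log2 values, a scale inferred from their number steps. The authors made them with RMA, per the submitters' processing notes, and its version is not given in the sources used here. Each probe set's median over the arrays was 0 (largest departure 5e-07), so levels had been subtracted. The number of arrays limits the precision. Probe sets were named by GEO's platform annotation. Of 45037 non-control probe sets 34945 name 1 gene symbol, 932 several and 9160 none. Of the listed genes 9, Pthlh among them, were not matched to a probe set by symbol and are not analysed here.

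Groups were compared per probe set in limma 3.58.1 under R 4.3.3 (lmFit and eBayes without trend, 3.46 prior and 2 residual degrees of freedom), two-sided, with Benjamini-Hochberg adjustment over all 45037 probe sets. The design had no block. An exact permutation test of 2 against 2 arrays cannot give a p under 0.333 and was not used. Intervals are 95% intervals of the model. Lists were described by the mean over each gene's probe sets. Alternatives were gene means, no moderation, robust moderation, quantile or median scaling, dim probe sets or the X and Y chromosomes left out, an adjusted p of 0.1, a gap of 0.25 or 1, the replicate number as a block, and each array left out. The pipeline was tested on simulated data with the same number of probe sets. The named genes were the 10 genes with every probe set, the 6 largest differences of each related list, some of other lists, and the nearest by likeness as stated. Those of other lists were not always the ones with the largest differences. The genes and lists were chosen with earlier results of these data known. Replicates are called biological by the design text, which names no litter or day that a shared number would mark.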

Additional observations from a re-analysis of the deposited data

How the results depend on the processing

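In the settings other than leaving out an array, 162 of 164 values of the 21 probe sets kept their direction and stayed short of the threshold. Most of these directions were fixed in advance. Robust or no moderation, the replicate block, and leaving out dim probe sets or X and Y can change the p-value only. The difference itself could change only with quantile or median scaling and with gene means. Renewed quantile normalization gave -2.60 for Prg4 in place of -3.87. The exceptions came from averaging a gene's probe sets, which gave -0.35 for Creb5, against 0.03 for 1457222_at, and 0.52 for Clu, against -0.01 for 1418626_a_at. The count of all probe sets past the threshold was 20, and it was 2 by gene means (18193 tested), 2 without moderation, 5 with the replicate block, 5 with X and Y left out, and 9 to 12 when 1 array was left out. The replicate number marks no stated batch, and the deviations of same-numbered arrays correlated at 0.10 over probe sets. None of the 21 was called with the block. Leaving out 1 array gave 0 to 1 calls among the 21, the 1 being Prg4 without Control 1. Groups did not overlap for 5 of the 10 genes by gene means, against 9 of 21 probe sets. The 5 genes were 4 in the lower direction (18.6% of all genes) and 1 in the higher (14.7%). The 9 probe sets were 7 in the lower direction (17.4% of all probe sets) and 2 in the higher (16.2%). Among the 5 genes, Prg4 was apart by 0.02 and Barx1 by 0.09. A gap of 1 in place of 0.5 left 2 probe sets that differed in both controls, both of Fxyd2, in place of 5. When 1 array was left out, 16 of 84 values turned their sign, over 12 probe sets. Erg ranged from -0.03 to 0.38 (1425370_a_at) and -0.53 to 0.62 (1440244_at), and Creb5 from -0.43 to 0.05 (1440089_at), -2.13 to 0.16 (1440527_at), -0.52 to 0.01 (1442576_at) and -0.02 to 0.09 (1457222_at). Clu ranged from -0.31 to 0.28 (1418626_a_at), -0.40 to 2.64 (1437458_x_at), -0.17 to 1.91 (1437689_x_at) and -0.27 to 0.49 (1454849_x_at), Cilp from -0.57 to 0.12 and Scrg1 from -0.21 to 0.35. The cause was not tested. Leaving out dim probe sets removed 4 of the 21.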

Other observations

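Genes of fibrous tissue around the joint differed in which array was highest. Of 14 synovium, tendon and perichondrium genes 5 were highest in Cilia-deleted 1 (16.3% of all genes) and 7 in Control 2 (27.6% of all genes), and the list's median was 0.0579 and 0.126 in these arrays. Highest values in Cilia-deleted 1 were not particular to fibrous tissue. Of 17 growth plate cartilage genes 9 were highest there, with a list median of 0.047. Postn, a matricellular protein of perichondrium and tendon, read 0.65 and -1.14 in the controls and 3.47 and -0.65 in the Cilia-deleted arrays, and Col3a1, a collagen of fibrous tissue, read -0.21 and 0.21 against 1.70 and -1.27. Dpt, the matrix protein dermatopontin, was highest in Control 2 (0.51), and Fmod, the collagen-binding fibromodulin, read 0.16 and 0.12 against -0.13 and -0.20. The cell surface protein Thy1 read -0.42 and -0.12 against 0.83 and 0.12. For the 14 genes the groups did not overlap for 3 in the lower direction (18.6% of all genes) and 2 in the higher (14.7%).

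Of 9 genes of the hypertrophic zone 4 were highest in Cilia-deleted 1 and 2 in Control 2. Their median was 0.352 in Cilia-deleted 1 and -0.347 in Cilia-deleted 2, against -0.0443 and 0.0443 in the controls. Mmp13, the collagenase of terminal hypertrophic cells, was high in Control 2 (2.45) and read -0.75 in Control 1, -0.30 in Cilia-deleted 1 and 0.30 in Cilia-deleted 2. Osteoblast genes had medians of -0.104 and 0.310 in the controls and 0.262 and -0.628 in the Cilia-deleted arrays, and endothelial genes -0.238 and 0.195 against 0.0129 and 0.112.

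Of 8 skeletal muscle genes the groups did not overlap for 3 in the lower direction (18.6% of all genes) and 1 in the higher (14.7%). By group difference 7 of the 8 lay below 0 and 1 above. Tnnc2, a troponin of fast muscle, read 0.52 and 0.50 against -0.63 and -0.50 (adjusted p = 0.161 by limma on gene means). Mylpf, a myosin light chain, read 0.77 and 0.38 against -0.38 and -0.56 (adjusted p = 0.312 by the same test). Myog, a muscle transcription factor, read -0.02 and -0.02 against 0.12 and 0.02. Outside the list, a probe set of the fast muscle troponin Tnni2 was called (difference -3.17, adjusted p = 0.0416 by limma). For all 3 fat genes measured both controls lay above both Cilia-deleted arrays (18.6% of all genes did), with a median difference of -0.226. Lpl, at 0.83 and 0.32 against -0.34 and -0.38, reached the gap of 0.5 used above. Adipoq (0.27 and 0.05 against -0.05 and -0.09) and Fabp4 (0.07 and 0.09 against -0.07 and -0.06) did not. Of these lists 0 genes passed the test.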
